A study of Mus musculus with 2 samples.

Results

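The potassium channel genes of hindlimb skeletal muscle were compared between 2 microarrays, 1 of wild-type mice and 1 of mice carrying a Syn4 transgene for overexpression of syntaxin 4. Members were the probe sets whose platform annotation names a single gene symbol starting with Kcn. There were 95 such probe sets for 92 genes, of 21789 probe sets for 19938 genes in all. Both groups were male C57BL/6J mice on a standard chow diet. The labels do not give the age of the mice, the promoter or cell type that drives the transgene, or how many animals stand behind each array. Values are log2 intensities of 1 array per genotype, so no difference below has a replicate check, an error or a p-value. Stx4a, which encodes syntaxin 4, had a log2 intensity of 8.84 in wild-type muscle and of 12.20 in transgenic muscle.

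Potassium channels let potassium ions leave or enter a cell and so set its resting potential and end its action potentials. In skeletal muscle fibres, inward rectifiers hold the resting potential and channels gated by ATP respond to the energy state of the fibre. Voltage-gated channels repolarise the fibre after each action potential. Most channels are tetramers. Some members of the family form a pore on their own, whereas silent subunits and auxiliary subunits only modify the channels of other members.

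A gene was taken as higher or lower when the arrays differed by at least 1.5-fold, which is 0.585 on the log2 scale, and when at least 1 array reached 6.79. This level filter is the median, over all genes, of each gene's brighter array. By this rule 1 potassium channel gene was higher and 4 were lower in the transgenic array. Promoter sequences are shown for the 4 of these 5 genes that have a single annotated start, since these members carry the differences past the rule. Each is the stretch of 250 bases before the start in RefSeq, build GRCm38.p6, written 5′ to 3′ on the gene's strand. The Kcng4 stretch is chr8:119635681-119635930 on the minus strand, that of Kcnf1 is chr12:17176889-17177138 on the minus strand, that of Kcnc1 is chr7:46396218-46396467 on the plus strand, and that of Kcnj3 is chr2:55435720-55435969 on the plus strand. Capitals mark matches on either strand to the E-box CAGCTG and to the GC box, which reads GGGCGG, and none of these matches overlap. The TATA box (letters TATAAA) and the cyclic AMP response element (letters TGACGTCA) were searched as well.
Kcng4: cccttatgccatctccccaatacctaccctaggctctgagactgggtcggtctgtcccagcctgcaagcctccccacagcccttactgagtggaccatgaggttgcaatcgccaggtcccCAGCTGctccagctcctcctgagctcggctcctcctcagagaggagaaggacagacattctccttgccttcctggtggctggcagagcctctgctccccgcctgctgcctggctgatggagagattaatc
Kcnf1: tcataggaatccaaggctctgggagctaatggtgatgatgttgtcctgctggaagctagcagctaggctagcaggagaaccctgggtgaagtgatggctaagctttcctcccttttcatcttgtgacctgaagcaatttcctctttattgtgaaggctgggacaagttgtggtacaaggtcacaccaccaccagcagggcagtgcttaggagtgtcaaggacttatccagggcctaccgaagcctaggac
Kcnc1: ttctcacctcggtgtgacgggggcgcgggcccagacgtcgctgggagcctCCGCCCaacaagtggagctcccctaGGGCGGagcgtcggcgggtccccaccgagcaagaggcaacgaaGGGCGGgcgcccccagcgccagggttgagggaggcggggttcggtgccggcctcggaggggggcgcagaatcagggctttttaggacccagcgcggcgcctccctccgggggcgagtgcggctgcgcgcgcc
Kcnj3: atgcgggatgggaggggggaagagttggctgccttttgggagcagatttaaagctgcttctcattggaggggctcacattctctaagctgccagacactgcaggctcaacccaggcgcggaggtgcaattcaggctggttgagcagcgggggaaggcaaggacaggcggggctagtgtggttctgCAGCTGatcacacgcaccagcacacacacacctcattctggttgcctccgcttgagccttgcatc

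The promoters of Kcng4, which was lower, and of Kcnj3, which was higher, each held 1 match to this E-box. Such a match was present in 13.0% of the 32851 promoter stretches of this length in the RefSeq table. The Kcnc1 stretch held 3 matches to the GC box, and 32.7% of all stretches hold at least 1. The share of stretches with 3 was not counted. This stretch was also the most GC-rich of the 4 at 74.4%, against a median of 52.4% over all stretches. The Kcnf1 stretch held none of these letters. The letters of the TATA box, found in 12.4% of all stretches, and those of the cyclic AMP response element, found in 1.55%, were absent from these 4 windows. A match describes the sequence only. Of the 92 genes, 70 had an entry in the promoter table. Kcnab1, the fifth gene, has 3 annotated starts, and which of them its probe set reads was not examined.

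Most potassium channel genes gave low signal in muscle and differed little between the arrays. For 37 of the 92 genes, neither array exceeded 5.47. That level is the 95th percentile of 1027 olfactory receptor genes, which serve as a reference for genes not expected to be expressed in muscle. Only 23 genes passed the level filter of 6.79, and 69 did not. Of all 92 genes, 57 were below 0, 32 above and 3 at 0, with a median difference of -0.09, where differences are transgenic minus wild type. Of 16 measured genes on a list of potassium channel genes known from skeletal muscle, 11 were below 0, 4 above and 1 at 0. Over all 19938 genes the median was 0.00, with 49.6% below 0 and 46.9% above. The 69 potassium channel genes under the filter had a median of -0.07, beside -0.04 for the 9964 genes of the array under it. Of these 69, 60.9% were below 0 and 34.8% above, beside 55.0% and 40.4% of the 9964. For the 23 that passed, the median was -0.12 and 65.2% were below 0, beside 0.03 and 44.2% for the 9974 genes of the array that passed. This describes a subset that the filter chose and is not used as support.

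Among the 23 genes that passed the filter, 1 was higher by 1.5-fold, where the background over all genes that passed was 2.66%, and 4 were lower, where the background was 1.71%. Of these 23, 5 passed through 1 array alone (Kcnj3, Kcnf1, Kcnab1, Kcnk6 and Kcnmb3), so the count partly follows from the filter. With both arrays required to reach 6.79, 18 potassium channel genes passed, of which 0 were higher and 2 lower (Kcng4 and Kcnc1), where the background over the 9446 genes that passed it was 2.13% and 1.5%. At 2-fold, 1 of the 23 was higher (Kcnj3) and 1 lower (Kcng4), against 0.862% and 0.381% of all genes. Without a level filter, 1 of 92 was higher (1.09%, background 1.76%) and 6 of 92 were lower (6.52%, background 1.19%), the additional genes being Kcnh7 and Kcns2. The higher share is near its background and says nothing about the family. The lower share rests on 6 genes, of which 3 are silent subunits of voltage-gated channels.

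**Figure D1:**
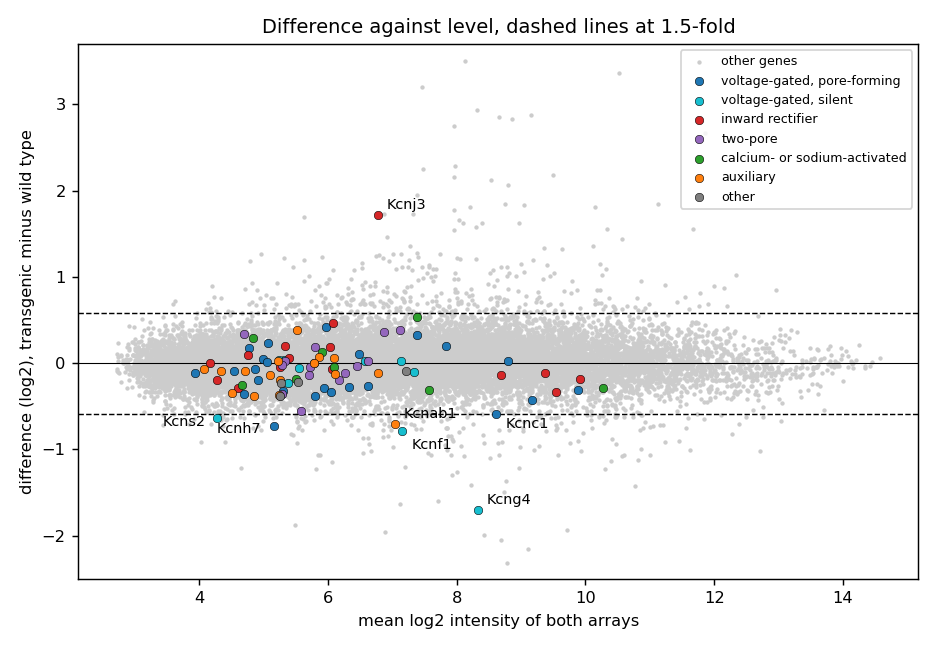
Difference between the arrays (log2, transgenic minus wild type) against the mean log2 intensity of both arrays, 1 point per gene, with potassium channel genes coloured by class and all other genes in grey. Kcnj3 at 1.72 and Kcng4 at -1.70 lie far outside the dashed lines at 1.5-fold, and most other potassium channel genes lie between them.

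The silent voltage-gated subunits held the largest negative difference. These proteins do not conduct alone and join Kv2 channels, whose gating they alter. Kcng4, a member of the Kv6 group, was at 9.18 in wild-type and 7.48 in transgenic muscle. Its difference of -1.70 is a 3.25-fold lower level, the seventh lowest of the 9974 genes of the array that passed the level filter. Both values were above the filter, so neither end of the comparison was dim. Kcnf1, the only member of the Kv5 group, was at 7.55 and 6.76, so 1.73-fold lower in transgenic muscle. Its transgenic value was just under the filter. Kcns2, of the Kv9 group, was at 4.60 and 3.96, a difference of -0.64 between values that were both under the olfactory receptor level.

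The other silent subunits did not share these differences. Within the Kv6 group, Kcng1 was at 7.39 in wild type and 7.29 in the transgenic array, Kcng2 at 7.12 and 7.14, and Kcng3 at 5.50 and 5.27. Kcns1, Kcns3, Kcnv1 and Kcnv2 lay between -0.06 and 0.04. Of the 10 silent subunits, 6 were below 0 and 4 above, with a median of -0.08 and a mean of -0.34 that includes Kcng4. Kcnb2, a Kv2 gene, was at 4.59 and 4.50, under the olfactory receptor level in both arrays. Amigo1, a membrane protein that accompanies Kv2 channels, was at 9.09 in wild type and 8.89 in the transgenic array.

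**Figure D2:**
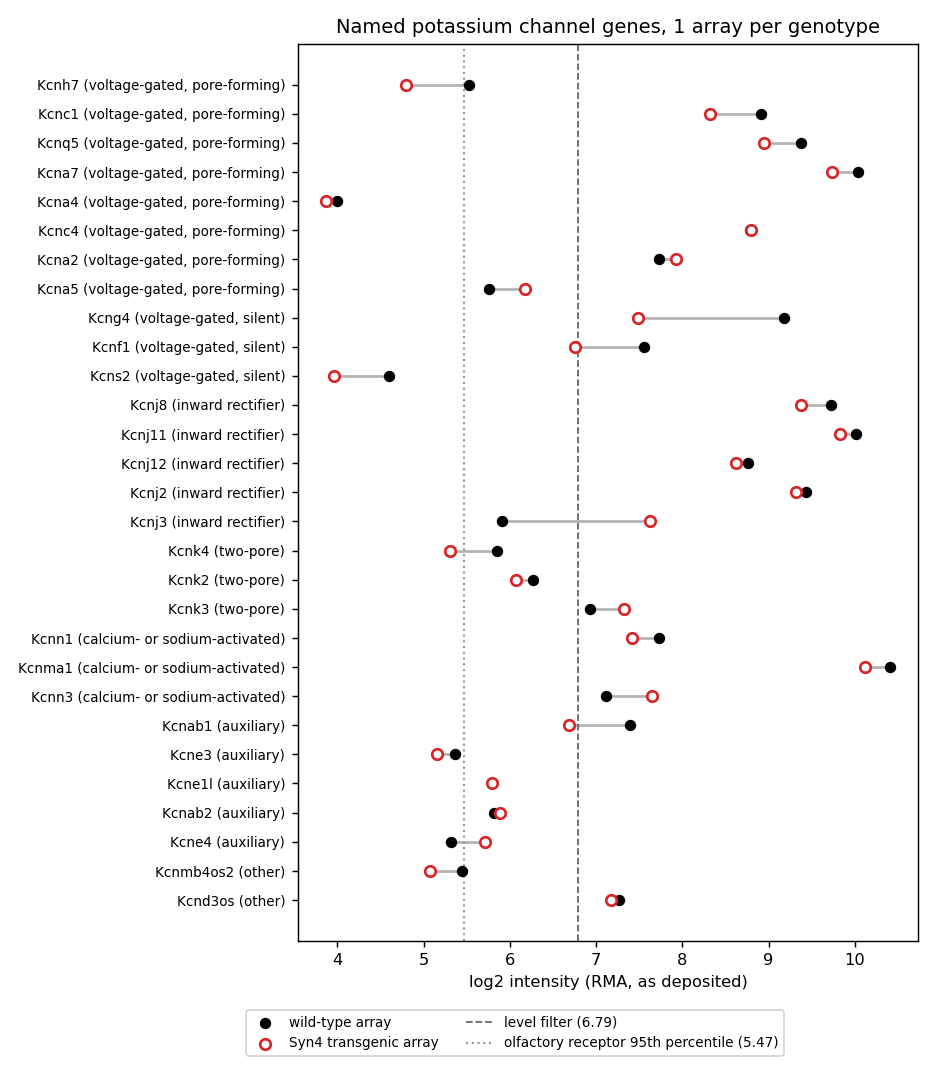
Log2 intensity of 29 named potassium channel genes in the wild-type array (filled) and the Syn4 transgenic array (open), with the level filter at 6.79 (dashed) and the olfactory receptor percentile at 5.47 (dotted). Each point is 1 array. The longest lines belong to Kcng4, from 9.18 down to 7.48, and Kcnj3, from 5.91 up to 7.63.

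Of the 25 pore-forming voltage-gated genes, 15 were below 0, 9 above and 1 at 0, with a median of -0.12. Kcnc1, a Kv3 channel that opens at strong depolarisation and repolarises cells fast, was at 8.91 in wild type and 8.32 in the transgenic array. It was 1.51-fold lower, at the edge of the rule. Values were deposited to 2 decimals, and its difference of -0.59 passes by less than that rounding allows. Kcnc4, the other Kv3 gene above the filter, was at 8.78 and 8.80, and Kcnc2 was under the olfactory receptor level at 4.68 and 4.86. The members of this small group therefore did not move by like amounts.

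Kcnq5, a slowly activating channel of the KCNQ family present in skeletal muscle, was at 9.38 in wild-type and 8.95 in transgenic muscle, a difference of -0.43. Kcnq1 was at 6.75 and 6.48, and Kcnq3 at 5.05 and 5.06, both under the filter. Kcna7, a Kv1 channel of striated muscle, was at 10.04 and 9.73, a difference of -0.31. Neither Kcnq5 nor Kcna7 reached 1.5-fold. The Kv1 genes best known from axons pointed the other way, with Kcna1 at 7.22 and 7.55 and Kcna2 at 7.73 and 7.93. The second probe set of Kcna2 was dim and near equal, at 5.17 and 5.18. Kcna4 was at 3.99 and 3.87, under the olfactory receptor level. Kcna5 had the highest difference of the voltage-gated genes, 0.42, from 5.76 to 6.18, which is under the filter. The 3 Kv4 genes, Kcnd1, Kcnd2 and Kcnd3, were all under the olfactory receptor level, with differences from -0.20 to 0.23.

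Among the 7 genes of the Kcnh group (ether-a-go-go channels), none passed the level filter, 5 were below 0 and 1 above. Kcnh7 was 1.66-fold lower, from 5.53 to 4.80, and its wild-type value was close to the olfactory receptor level of 5.47. The other 6 lay between -0.36 and 0.11. Kcnh8 has a pair of probe sets whose differences of 0.06 and -0.07 disagree in sign at low signal.

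Kcnab1, a cytoplasmic beta subunit that binds Kv1 channels and speeds their inactivation, was the auxiliary gene past the rule. It was at 7.39 in wild type and 6.69 in the transgenic array, 1.62-fold lower, and the transgenic value was under the filter. The other beta subunits were near equal and dim, with Kcnab2 at 5.82 and 5.89 and Kcnab3 at 4.75 and 4.66. None of the 5 Kcne genes, which encode single-span modifiers of voltage-gated channels, passed the filter. Kcne3, known from skeletal muscle, was at 5.36 and 5.16, Kcne1l at 5.79 in both arrays, and Kcne4, with the highest difference of the auxiliary genes, at 5.32 and 5.71. The 4 Kcnip genes, whose products bind Kv4 channels, lay between -0.14 and 0.06, and none passed the filter. Over the 16 auxiliary genes, 11 were below 0 and 4 above.

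**Figure D3:**
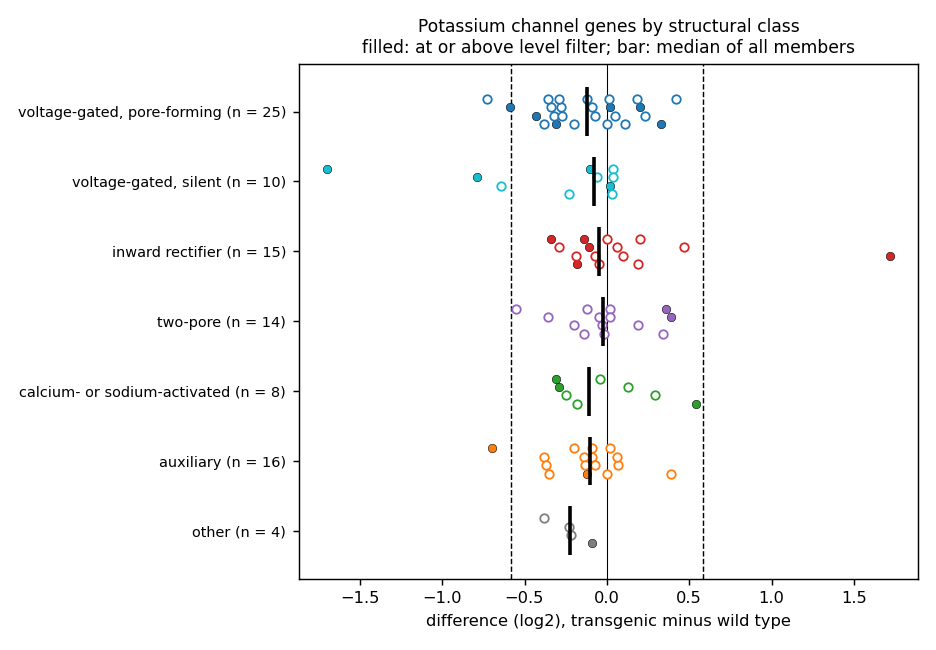
Difference (log2, transgenic minus wild type) of every potassium channel gene by structural class, with filled points for genes at or above the level filter, open points for those under it and a bar at the median of all members. Class medians lie between -0.23 and -0.03, and Kcng4 and Kcnj3 stand far from the rest of their classes.

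Inward rectifiers conduct best near and below the resting potential. The member with the largest positive difference of the whole family was Kcnj3, a pore subunit of Kir3 channels, which open when G proteins are activated and are best known from atrial muscle and neurons. It was at 5.91 in wild type and 7.63 in the transgenic array, 3.29-fold higher and number 25 from the top among the 9974 genes that passed the filter. The wild-type value was under the filter and above the olfactory receptor level, so this fold rests on a dim value. The subunits with which it forms channels were all dim and did not share the difference. Kcnj5 was at 4.75 and 4.46, Kcnj6 at 4.37 and 4.18, and Kcnj9 at 5.23 and 5.43, each under the olfactory receptor level in both arrays.

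The inward rectifiers of the muscle fibre membrane differed little. Kcnj2 and Kcnj12, the Kir2 channels that hold the resting potential of muscle, were at 9.43 and 8.76 in wild type and at 9.32 and 8.62 in transgenic muscle, differences of -0.11 and -0.14. Kcnj11, the pore of the ATP-sensitive channel of fibres, was at 10.01 and 9.83. Its regulatory partner Abcc9 was at 11.82 and 11.98, and Abcc8, the partner in pancreatic beta cells, at 6.71 and 6.80. Kcnj8, the pore of the ATP-sensitive channel of vascular smooth muscle and pericytes, was at 9.72 in wild type and 9.38 in the transgenic array. Its difference of -0.34 was the lowest of the 15 inward rectifiers and did not reach 1.5-fold. In whole muscle, fewer cells of a type and less RNA per cell cannot be told apart. Of 10 markers of smooth muscle and pericytes, 7 were above 0 and 3 below, with a median of 0.19. They ranged from Notch3 at -0.15 to Cnn1 at 0.88, which passed the rule as higher, where 2.66% of all genes that passed the filter did. Rgs5, a pericyte gene, was at -0.08, whereas Pdgfrb was at 0.19 and Cspg4 at 0.13. Des, also on this list, is used below as a marker of skeletal muscle fibres. The part of this list in the value of Kcnj8 was not tested.

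Calcium-activated channels open when calcium inside the cell rises. Kcnma1, the pore of the large-conductance BK channel, was at 10.41 in wild type and 10.12 in the transgenic array. A second, dim probe set annotated to Kcnma1 was at 3.55 and 3.78, with the opposite sign. The difference of -0.29 becomes -0.03 when both probe sets are averaged. All 4 beta subunit genes of this channel were below 0, from -0.38 for Kcnmb2 to -0.12 for Kcnmb3, and only Kcnmb3 passed the filter, at 6.84 and 6.72. The gamma subunits, leucine-rich repeat proteins that ease the opening of BK channels, are not named Kcn. Of these, Lrrc52 was at 9.45 in wild type and 8.08 in the transgenic array, 2.58-fold lower with both values above the filter. Lrrc38 was at 9.95 and 9.48, a difference of -0.47 that did not reach 1.5-fold. Lrrc26 and Lrrc55 were under the filter with differences of -0.16 and 0.51. Of the 9 genes of the BK channel and its subunits, 8 were below 0, with Kcnma1 counted by its brighter probe set. Over all genes 49.6% were below 0, and 55.0% of those under the level filter. Of the 9, 4 passed the filter and 1 was lower by the rule of size, where 1.71% of all genes that passed were.

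Small-conductance channels gave differences of both signs. Kcnn3, which muscle fibres express more when they lose their nerve, was at 7.11 in wild type and 7.65 in transgenic muscle, 1.45-fold higher and short of the rule. Kcnn1 was at 7.73 and 7.42, Kcnn2 at 5.84 and 5.97, and Kcnn4, the intermediate-conductance channel, at 6.12 and 6.08. Of 11 measured markers of denervated or regenerating fibres, 9 were above 0 with a list median of 0.30. By the rule of size 3 of them were higher, Ankrd1 (1.83), Ncam1 (1.14) and Runx1 (1.04), where 2.66% of all genes that passed the filter were. Myog of that list was equal, at 6.22 in both arrays, and Chrnd near equal at 0.09. Chrng, the only one below 0, was at 6.28 and 6.07. The part of this list in the value of Kcnn3 was not tested. The remaining genes of the calcium- or sodium-activated class, Kcnt1, Kcnt2 and Kcnu1, were under the filter, with differences between -0.25 and 0.29.

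**Figure D4:**
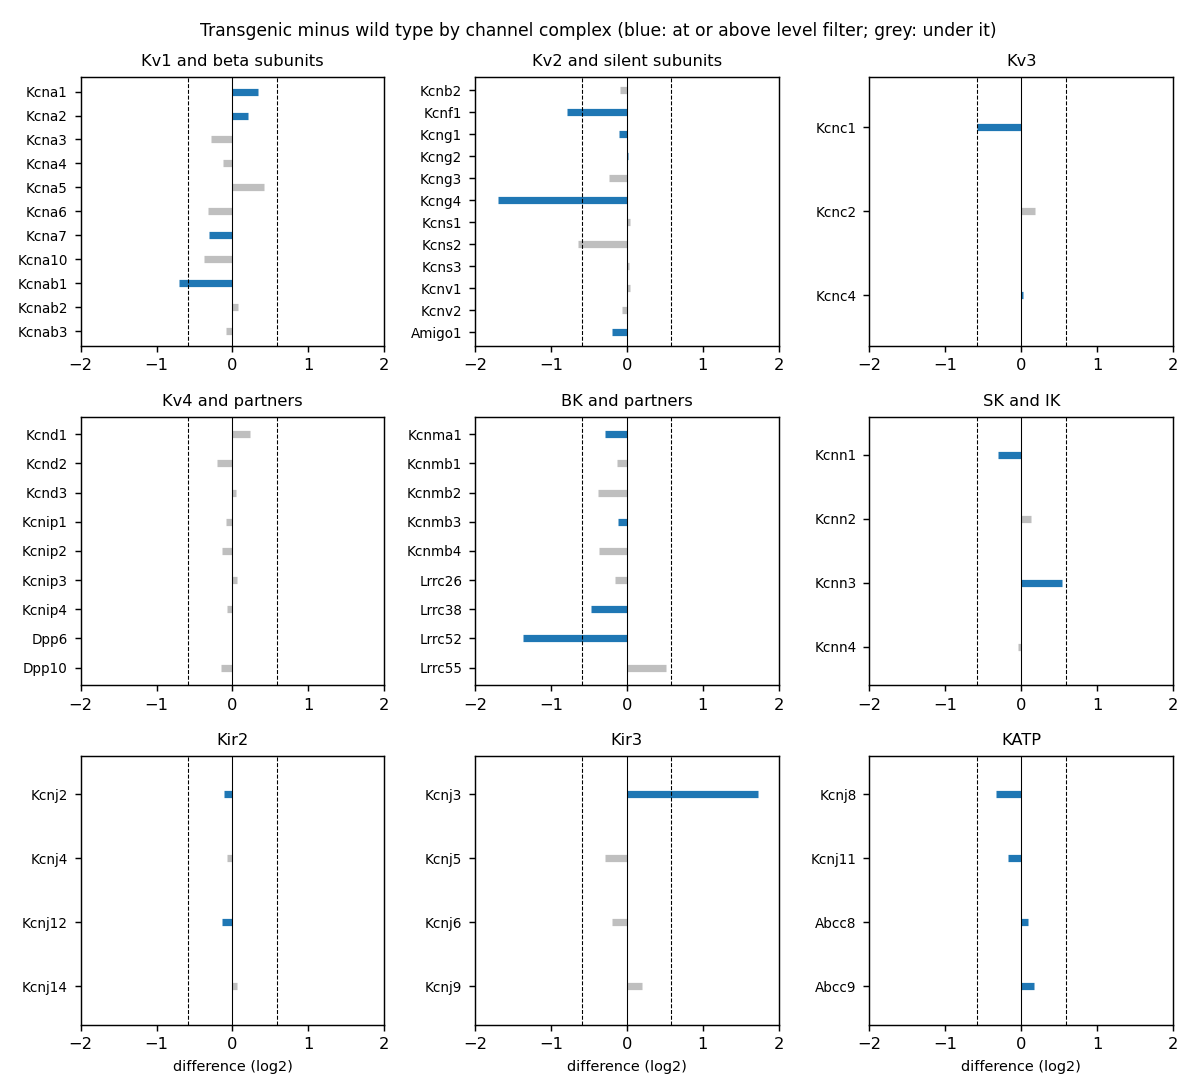
Difference (log2, transgenic minus wild type) of each pore gene and its partner subunits, 1 panel per channel type, with blue bars for genes at or above the level filter, grey bars for those under it and dashed lines at 1.5-fold. In the BK panel Lrrc52 (-1.37) passes the line, and in the Kir3 panel Kcnj3 (1.72) does so while its partners do not.

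The leak channels with paired pore domains, encoded by Kcnk genes, held no gene past the rule. Of 14, 8 were below 0 and 6 above, with a median of -0.03, and 2 passed the level filter. Kcnk3, an acid-sensitive leak channel, was at 6.93 in wild type and 7.32 in the transgenic array, and Kcnk6 was at 6.69 and 7.05. Kcnk4, a channel opened by membrane stretch, was lowest at -0.55, from 5.85 to 5.30, under the filter. Its relative Kcnk2 was at 6.27 and 6.07. Of the 4 members in no channel class, all were below 0. The antisense transcript Kcnd3os was at 7.26 and 7.17, Kcnmb4os1 at 5.65 and 5.43, Kcnmb4os2 at 5.45 and 5.07, and Kcnrg, which encodes an inhibitor of channel assembly, at 5.39 and 5.16. The labels do not say whether the labelled target kept strand, so signal of an antisense transcript and its partner gene may mix.

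Of 10 other genes of fibre excitability that were listed, 6 were measured and none of these 6 reached 1.5-fold, with 3 above 0 and 3 below. The sodium channel genes of this list were not analysed here. Clcn1, the chloride channel of the fibre membrane, was at 10.51 in wild type and 10.46 in the transgenic array, and Cacna1s, the calcium channel and voltage sensor of the T-tubule, at 12.98 and 13.15. Cacng1, a subunit of that channel, was highest at 0.47, and Atp1b1, a subunit of the sodium pump, lowest at -0.32. Cacnb1 was at -0.21 and Atp1b2 at 0.33. Of the 9 listed partners of potassium channels that are not named Kcn, 5 passed the filter and Lrrc52 alone passed the rule, as lower. Dpp6 and Dpp10, partners of Kv4 channels, were at 0.00 and -0.15 and under the filter. Over all genes that passed the filter, 2.66% were higher and 1.71% lower by the rule. By the same rule, 0 genes were lower and 2 higher among 11 sodium channel genes, of which 3 passed the filter. These were Scn2a, at 7.72 in wild type and 10.60 in the transgenic array (7.36-fold, a larger difference than that of any potassium channel gene), and Scn7a, at 8.14 and 9.10. Among 24 calcium channel genes, of which 9 passed the filter, 1 was lower, Cacna2d4 at 8.29 and 7.34, and 0 were higher. None of 7 chloride channel genes reached 1.5-fold in either direction.

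Both arrays carried the defining markers of skeletal muscle, and fibre type markers differed between them. Acta1, Ckm, Mb, Ttn, Myh4 and Des were all at 13.7 or more in both arrays and differed by -0.03 to 0.20. The marker lists were written with earlier results of these data known. All 10 slow fibre markers were below 0, from -1.02 to -0.42 with a median of -0.75. Of these, 9 passed the rule as lower, where 1.71% of all genes that passed the filter did. The median level of the slow fibre markers was 12.70 in wild type and 12.02 in the transgenic array. The 12 fast fibre markers lay between -0.15 and 0.36, with a median of 0.02. All 9 measured white adipocyte markers were above 0, from 0.22 to 3.20. Of these, 6 passed the rule as higher, where 2.66% of all genes that passed the filter did. The median level of the adipocyte markers was 7.77 in wild type and 9.11 in the transgenic array. Among 10 measured markers of Schwann cells and axons, 9 were above 0, where 46.9% of all genes were. They ranged from Nefl at -0.29 to Egr2 at 1.08, with a median of 0.25. Of the 5 that passed the filter, Egr2 alone was higher by the rule, where 2.66% of all genes that passed were. Ncmap was at 0.90 under the filter. The axon genes Nefl, at 4.64 and 4.35, and Nefm, at 4.61 and 4.64, were under the olfactory receptor level in both arrays. Endothelial markers had a median of 0.01 over 8 genes. The part of these lists in the differences of the potassium channel genes was not tested.

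**Figure D5:**
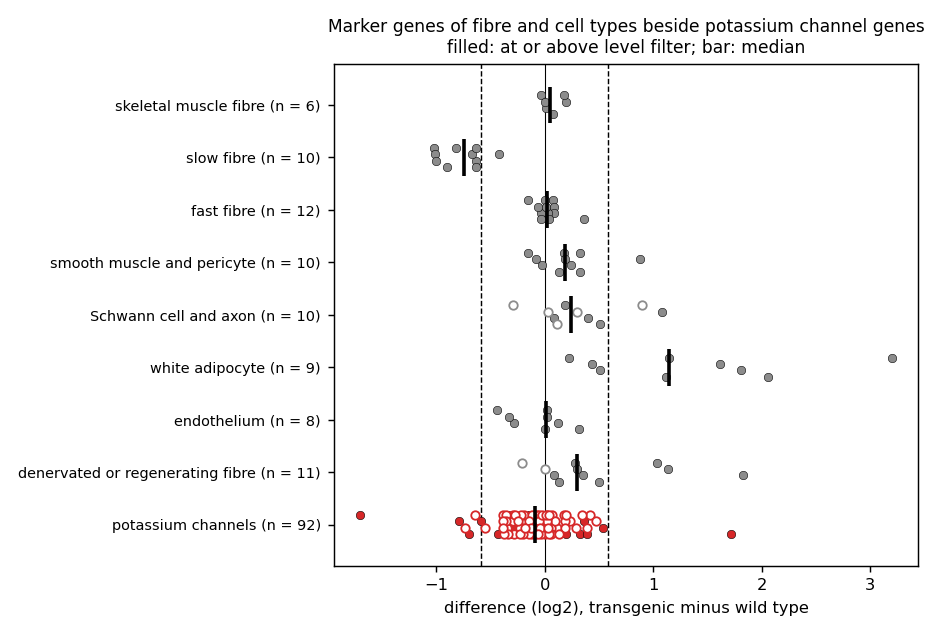
Difference (log2, transgenic minus wild type) of marker genes for fibre and cell types, and of the 92 potassium channel genes, with filled points for genes at or above the level filter and bars at the median. Slow fibre markers (median -0.75) lie below 0 and white adipocyte markers (median 1.15) above it, and the potassium channel genes centre on -0.09.

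None of the measured genes next to those past the rule on the chromosome, looked up after the values were seen, reached 1.5-fold. Beside Kcng4, 3 genes on each side lay between -0.25 and 0.03, with Wfdc1 at 11.46 in wild type and 11.24 in the transgenic array. Beside Kcnj3, the 6 neighbours lay between -0.21 and 0.54. The highest was Galnt5, from 5.71 to 6.25 and under the filter, and the nearest on each side were Galnt13 at -0.06 and Nr4a2 at 0.01. Kcnf1 and Kcnab1 had neighbours between -0.19 and 0.12 and between -0.31 and 0.16. On 1 side of Kcnab1, Ssr3, 4931440P22Rik and Tiparp were at -0.23, -0.31 and -0.28. On the other side, Gmps, Vmn2r1 and Vmn2r-ps11 were at 0.01, 0.16 and -0.10. Beside Kcnc1, the 6 neighbours lay between -0.58 and 0.30. Tph1 was lowest, from 7.12 to 6.54, an amount like that of Kcnc1, and Myod1 was highest. Sergef, which lies between Kcnc1 and Tph1, was at -0.16. Saal1 was at -0.30, Ush1c at -0.18 and Otog at -0.05.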

How the data were processed

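RNA of hindlimb muscle was measured on 1 whole-transcript Affymetrix array per genotype, from biotin-labelled target, per the labels' protocols. The deposited values are log2 intensities that the authors made with RMA in Partek, per the submitters' processing notes, with versions and steps not given in the sources used here. Such values can understate folds and hold no call of presence. Precision is limited by having 1 array per group. Signals of different probe sets do not rank the abundance of their genes.

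Symbols came from the platform annotation. Of 35556 probe sets, 21789 had 1 symbol, 1621 several and 12146 none. All 92 potassium channel symbols were found by Entrez identifier in the RefSeq table of GRCm38.p6, and none changed. For genes with over 1 probe set, 3 here, the probe set with the highest mean was used. No test was possible with 1 array per group. The members and lists were chosen with earlier results of these data known, and the promoter motifs and neighbours after the values were seen. Named were the genes past 1.5-fold, the 12 with the highest mean level, the highest and lowest difference of each class, and lists of muscle, partner and excitability genes. Other genes named were chosen after their values were seen. The alternatives were other level filters, a 2-fold rule, other uses of the probe sets, and other scalings (median centring, loess with span 0.3 and 3 iterations, quantile). The counting was tested on simulated differences. Python 3.11.15, pandas 2.3.3 and statsmodels 0.14.6 were used.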

Additional observations from a re-analysis of the deposited data

How the results depend on the processing

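Counts kept their size, to within 1.5 times, with a filter on the mean or at the level of olfactory receptors, without any filter, with averaged or single probe sets, and median, loess or quantile scaling. The filter on both arrays left 0 genes higher and 2 lower of 18, against 201 and 142 of all 9446 genes, and the 2-fold rule left 1 lower, against 0.381%. The median difference ran from -0.13 (filter on both arrays) to -0.05 (loess). Over the 143 values of the 29 named genes under other scalings or probe set rules, 0 crossed the 1.5-fold rule, and only Kcnc4 changed sign, to -0.02 with loess and -0.03 with quantile scaling. Most of these values could not change, so their sameness is no check. Median centring shifted nothing, as both arrays had a median of 6.06. The probe set rules can alter the difference only of genes with over 1 probe set, 3 of the 92. The same limit holds for the counts under these settings. The largest shift of a named gene was 0.26, for Kcnma1, from -0.29 to -0.03 with averaged probe sets. No paired analysis was possible because each group is 1 array.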
